A study of Oryza sativa with 12 samples.

Results

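Type II MADS-box genes encode transcription factors that bind DNA as dimers and assemble into larger complexes, and in flowers the combination present in a whorl sets which organ forms there. The group analysed here was a list of 39 rice locus IDs, described as MIKC-type and related OsMADS genes, out of 55986 IDs measured in the table of ossh1 and WT. Members were found by ID from that fixed list, and the rule uses no measured value. The list was, however, chosen with earlier results of these data known. The list gives the names OsMADS1 to OsMADS8 and OsMADS13 to OsMADS17 to its first 13 IDs, and the other 26 members are given below by ID, without a name or a role. All 39 IDs were in the ossh1 table, and 15 of them had a row in the table of oscct and CK, which lists 11688 IDs.

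The model of floral organ identity assigns the named members to classes. AP1/FUL genes (OsMADS14, OsMADS15) act in the switch to flowering and in inflorescence and spikelet meristems. B class genes (OsMADS2, OsMADS4, OsMADS16) specify lodicules and stamens, the C class gene OsMADS3 specifies stamens and acts in carpels, and the D class gene OsMADS13 specifies ovules. E class genes (OsMADS1, OsMADS5, OsMADS7, OsMADS8) are the SEPALLATA-like partners of the other classes, and OsMADS6 and OsMADS17 belong to the related AGL6 clade. MADS-box genes also have a known place in organ separation, since in tomato JOINTLESS and MACROCALYX are needed to form the abscission zone of the flower stalk.

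RNA was sequenced from the rice abscission zone, the cell layer at the base of the spikelet where the grain detaches, sampled on the day of flowering. The groups were ossh1 mutants, set against WT, and oscct mutants, set against CK, each with 3 replicates that pooled 5 plants. The labels name no allele, cultivar or number of mutant lines, and say that plants grew in the field in Beijing or in Sanya without tying samples to a place. Line background and place therefore cannot be told apart from the mutation in any result below. The series title sets OsSh1, OsCCT22 and OsCAD2 in one module acting on seed shattering through lignin, and each mutant was compared with its own wild type. No source used here pairs those 3 names with locus IDs, so the targeted genes were not checked.

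Libraries of ossh1 held from 27044341 to 28600944 counts and those of WT from 30382846 to 32055561. The values listed for oscct summed to between 12526152 and 12812857 and those for CK to between 12943437 and 13318397, which is only part of each library. Counts of replicates were further apart than sampling alone gives: chi-square divided by its degrees of freedom was 1.71 at the least and 4.46 at the most. The oscct table lists rows with a difference between its groups: among the 3193 rows averaging 1000 counts or more, none had a log2 difference between -0.02 and 0.12. Calls in that table are therefore a description of listed rows. Levels below are scaled CPM, that is counts divided by the scaled library total, and are not adjusted for gene length, so they were compared between groups and not between genes.

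Most MADS-box genes with measurable expression were higher in ossh1 than in WT. Of the 34 members that passed the filter on low counts, 28 passed an adjusted p of 0.05, 22 of them higher and 6 lower, in edgeR's quasi-likelihood test, adjusted by the Benjamini-Hochberg method over all 22669 IDs tested. Over all IDs tested, 58.3% passed, 29.2% higher and 29.1% lower. The median log2 fold change was 0.40 over the 34 members and -0.01 over all IDs tested. The libraries of the groups did not overlap for 28 of the 34 members, against 62.3% of all IDs. In pooled tissue, more cells of a type and more RNA per cell cannot be told apart, and this holds for every rise and fall given here. Scaling by library totals alone moved the median of all IDs to -0.108 and the share of higher among called IDs to 38.6%, against 50.1% with the scaling used, and 20 members were then higher and 6 lower. Reads of close relatives (OsMADS2 and OsMADS4, OsMADS7 and OsMADS8, OsMADS14 and OsMADS15, OsMADS6 and OsMADS17) could be split between them by the counting, so their separate values are less certain.

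**Figure D1:**
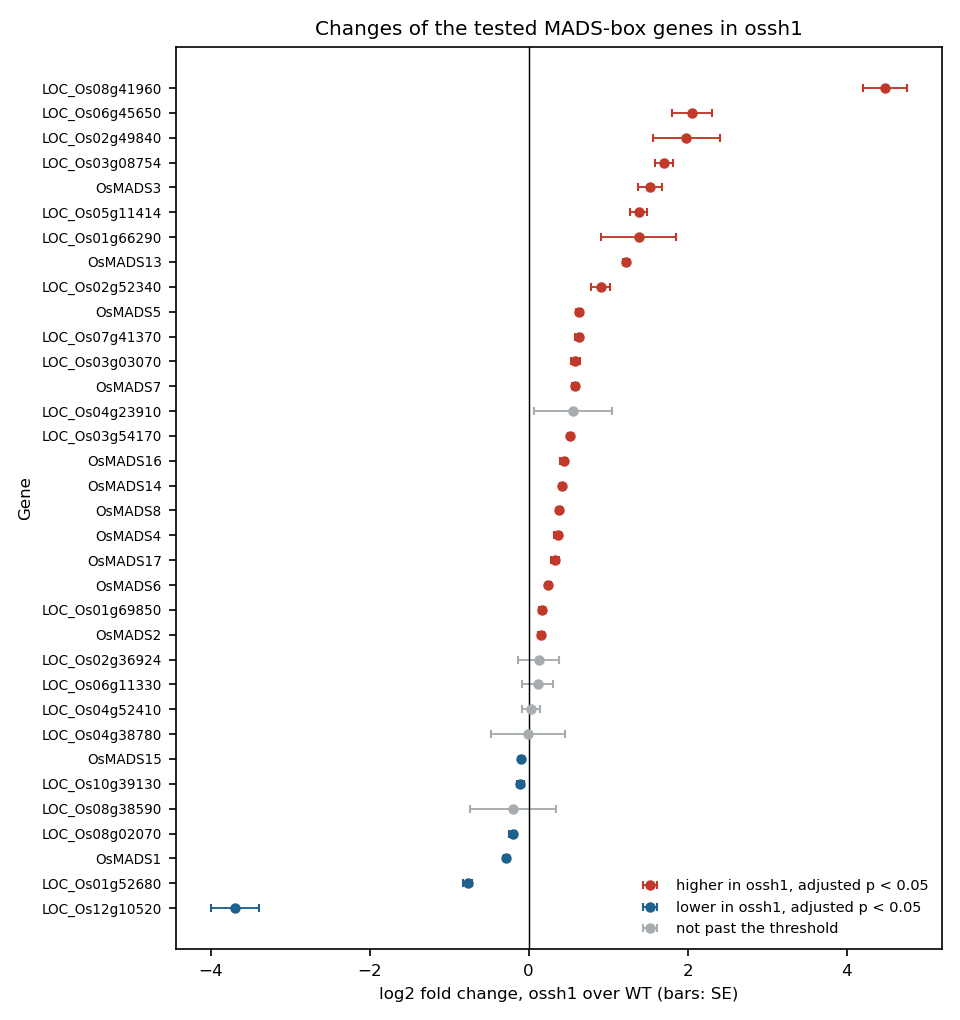
Log2 fold change of ossh1 over WT (horizontal axis, bars show SE) for the 34 tested MADS-box genes, ordered by size, with 3 libraries per group. Points right of 0 are higher in ossh1; the values run from -3.69 for LOC_Os12g10520 to 4.48 for LOC_Os08g41960.

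All 13 named genes passed the test in ossh1, 11 higher and 2 lower. The D class gene OsMADS13, which specifies ovules, had 185.5, 187.6 and 181.1 CPM in ossh1 libraries, against 82.2, 76.7 and 77.4 CPM in WT libraries. Its lowest ossh1 library lay above its highest WT library by more than the whole spread of either group. The log2 fold change was 1.23 (SE 0.04, edgeR, adjusted p = 2.65e-28), or 2.35-fold. The C class gene OsMADS3, which specifies stamens, had 7.04, 8.34 and 8.13 CPM in ossh1 and 3.09, 3.12 and 1.97 CPM in WT. It had the largest relative rise among the named genes, with a log2 fold change of 1.52 (SE 0.16, edgeR, adjusted p = 2.75e-11). WT replicate 3 had the lowest value, with 65 counts against 99 and 98 in the other WT libraries.

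The 3 B class genes rose together but by less. OsMADS16, the AP3-like gene, averaged 101.3 ± 6.13 CPM in ossh1 and 74.5 ± 1.17 CPM in WT (SD, n = 3 each), 1.36-fold. OsMADS4, a PISTILLATA-like gene, averaged 81.9 ± 1.83 CPM in ossh1 and 63.4 ± 2.57 CPM in WT, 1.29-fold. Its close relative OsMADS2, known for its role in lodicules, averaged 140.7 ± 4.4 CPM in ossh1 and 126.0 ± 3.7 CPM in WT, 1.12-fold. The groups did not overlap for any of the 3, and the adjusted p was 1.09e-11, 2.17e-09 and 0.000339 in edgeR in the same order. The call of OsMADS2 was lost when libraries were scaled by their totals (log2 fold change 0.06, adjusted p = 0.153, edgeR, where its alternatives gave adjusted p from 0.000122 to 0.153).

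The E class genes moved in different directions. OsMADS1, which specifies lemma and palea and limits the floret meristem, fell to 552.5, 508.8 and 594.6 CPM in ossh1, against 672.0, 687.2 and 650.4 CPM in WT. Every ossh1 library was under every WT library, and the log2 fold change was -0.28 (SE 0.03, edgeR, adjusted p = 3.2e-09). OsMADS5 had 209.7, 245.7 and 212.5 CPM in ossh1 and 141.8, 143.6 and 144.4 CPM in WT, a log2 fold change of 0.64 (SE 0.04). OsMADS7 had 129.3, 132.8 and 133.5 CPM in ossh1 and 89.8, 85.5 and 88.4 CPM in WT, a log2 fold change of 0.59 (SE 0.04). OsMADS8, the nearest relative of OsMADS7, had 326.2, 330.0 and 319.5 CPM in ossh1 and 248.1, 252.7 and 244.9 CPM in WT, a log2 fold change of 0.39 (SE 0.03). OsMADS5, OsMADS7 and OsMADS8 thus rose while OsMADS1 fell, and these directions were the same under all 12 alternatives tried for each.

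The AP1/FUL genes split in the same way. OsMADS14 had 779.4, 775.9 and 812.5 CPM in ossh1, against 599.2, 582.2 and 590.3 CPM in WT, with a log2 fold change of 0.42 (SE 0.03, edgeR, adjusted p = 4.38e-17). OsMADS15 was slightly lower, with 500.4, 489.0 and 501.0 CPM in ossh1 and 535.0, 524.8 and 527.3 CPM in WT. Its groups did not overlap, but the change was only -0.09 on the log2 scale (SE 0.03, edgeR, adjusted p = 0.00471). Both AGL6-clade genes rose. OsMADS6, which acts in palea identity and floret meristem fate, averaged 249.8 ± 0.808 CPM in ossh1 and 210.7 ± 1.15 CPM in WT (SD, n = 3 each), 1.19-fold. OsMADS17 averaged 70.1 ± 3.48 CPM in ossh1 and 55.6 ± 1.48 CPM in WT, 1.26-fold.

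**Figure D2:**
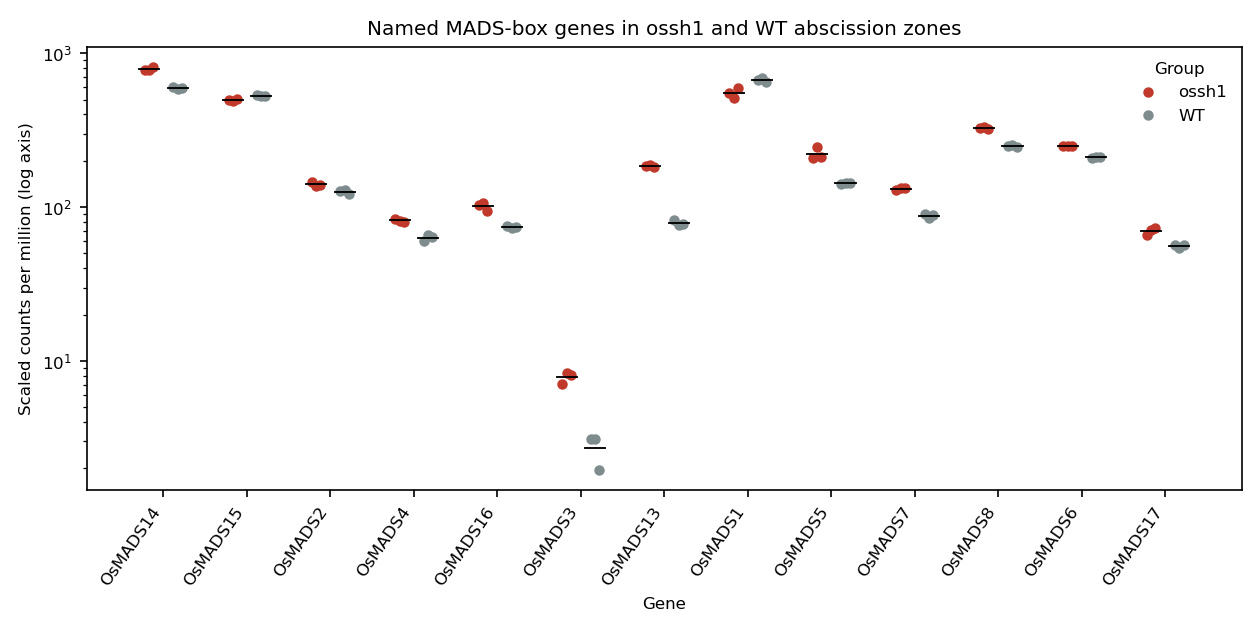
Scaled CPM (log axis) of the 13 named MADS-box genes in the 3 ossh1 libraries (left of each position) and the 3 WT libraries (right); points are libraries and black lines group means. OsMADS13 and OsMADS3 show the widest separation, and OsMADS1 and OsMADS15 are the genes with lower ossh1 values.

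A list of 9 named genes served as markers of floret tissue that a dissected zone could hold: OsMADS2, OsMADS4 and OsMADS16 for lodicules and stamens, OsMADS3 for stamens and carpels, OsMADS13 for ovules, and OsMADS1, OsMADS6, OsMADS14 and OsMADS15 for palea and lemma. None of the 9 was at 0 in any library of ossh1 or WT. Their summed level was 2544 to 2663 CPM in ossh1 and 2320 to 2364 CPM in WT. The sum rests mostly on OsMADS1, OsMADS14 and OsMADS15, which averaged 669.9, 590.6 and 529 CPM in WT. Of these, OsMADS14 rose while OsMADS1 and OsMADS15 fell, so the sum does not show how single markers moved. In ossh1, 7 of the 9 were higher and 2 lower, where 29.2% and 29.1% of all IDs tested were. The 9 are a chosen part of the named genes above. OsMADS5, OsMADS7, OsMADS8 and OsMADS17, all higher in ossh1, were left out. How much floret tissue each sample held, and its part in these results, was not tested.

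Among the 26 members without a name here, 21 were tested in ossh1, with 11 higher, 4 lower and 6 not past the threshold. Those with a change of at least 1.5-fold numbered 9 higher and 2 lower. With the named OsMADS3, OsMADS5, OsMADS7 and OsMADS13, this made 13 of 34 members higher by at least 1.5-fold and 2 lower, against 13.7% and 12.1% of all IDs tested. With scaling by library totals, OsMADS5, OsMADS7, LOC_Os07g41370 and LOC_Os03g03070 were under 1.5-fold, at log2 fold changes of 0.54, 0.49, 0.53 and 0.49. LOC_Os08g41960 changed most: it had 162, 160 and 167 counts in ossh1 libraries, against 4, 4 and 18 counts in WT libraries. The ossh1 libraries were nearly equal, while WT replicate 3 stood above the other WT libraries. The log2 fold change was 4.48 (SE 0.28, edgeR, adjusted p = 7.3e-18), 22.4-fold, and without WT replicate 3 it was 46.8-fold.

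LOC_Os12g10520 went the other way. It had 7, 6 and 8 counts in ossh1 libraries, against 113, 90 and 130 counts in WT libraries, with a log2 fold change of -3.69 (SE 0.3, edgeR, adjusted p = 4.27e-14). LOC_Os01g52680 was the other member lower by at least 1.5-fold, at 38.4, 34.2 and 32.7 CPM in ossh1 and 59.8, 61.6 and 58.0 CPM in WT. This was a log2 fold change of -0.77 (SE 0.06, edgeR, adjusted p = 1.12e-15). The groups did not overlap for either gene.

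Another 5 members rose by more than 2-fold. LOC_Os03g08754 had 14.5, 15.1 and 14.6 CPM in ossh1 and 4.0, 4.17 and 5.38 CPM in WT, 3.25-fold. LOC_Os05g11414 had 14.2, 13.3 and 13.5 CPM in ossh1 and 4.84, 5.61 and 5.23 CPM in WT, 2.61-fold. LOC_Os06g45650 had 101, 93 and 79 counts in ossh1 and 17, 33 and 29 counts in WT, 4.16-fold. In all 3 the lowest ossh1 library was above the highest WT library, with adjusted p of 1.04e-16, 1.21e-14 and 2.28e-09 in edgeR. LOC_Os02g49840 had 36, 25 and 25 counts in ossh1 and 4, 12 and 10 counts in WT, 3.95-fold (adjusted p = 9.53e-05, edgeR). LOC_Os01g66290 had 21, 24 and 16 counts in ossh1 and 18, 6 and 4 counts in WT, 2.61-fold (adjusted p = 0.0106, edgeR). The CPM values of LOC_Os01g66290 did not overlap between groups, from 0.575 to 0.922 in ossh1 and from 0.121 to 0.562 in WT, but its raw counts did. Its call was lost without WT replicate 2 (2.24-fold, adjusted p = 0.0606, edgeR), without WT replicate 3 (2.01-fold, adjusted p = 0.0877) or without ossh1 replicate 2 (2.35-fold, adjusted p = 0.0542), and its fold was 4.82 without WT replicate 1.

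A further 3 members without a name rose by at least 1.5-fold. LOC_Os02g52340 had 9.44, 9.80 and 8.67 CPM in ossh1 and 5.09, 4.65 and 5.14 CPM in WT, 1.87-fold. LOC_Os07g41370 had 73.5, 77.3 and 73.9 CPM in ossh1 and 47.5, 47.3 and 50.5 CPM in WT, 1.55-fold. LOC_Os03g03070 had 37.0, 36.4 and 36.5 CPM in ossh1 and 24.2, 23.4 and 25.4 CPM in WT, a log2 fold change of 0.59 (SE 0.06). Each separated the groups without overlap. The other 4 members past the test changed less, with log2 fold changes of 0.52 for LOC_Os03g54170, 0.17 for LOC_Os01g69850, -0.20 for LOC_Os08g02070 and -0.10 for LOC_Os10g39130. The call of LOC_Os10g39130 had an adjusted p of 0.0353 and was lost with DESeq2 (adjusted p = 0.0697), with no filter and without WT replicate 1, WT replicate 2 or ossh1 replicate 1 (adjusted p = 0.14, 0.123 and 0.0776, edgeR). The call of LOC_Os01g69850 was lost with library totals (adjusted p = 0.0662, edgeR).

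The 6 tested members that did not pass were LOC_Os02g36924, LOC_Os04g23910, LOC_Os04g38780, LOC_Os04g52410, LOC_Os06g11330 and LOC_Os08g38590, all with overlapping groups. Of these, LOC_Os04g52410 was the most precisely measured, with 7.73 ± 0.409 CPM in ossh1 and 7.56 ± 0.341 CPM in WT (SD, n = 3 each), and an approximate 95% interval of its log2 fold change from -0.19 to 0.26. LOC_Os04g23910, LOC_Os04g38780 and LOC_Os08g38590 had at most 24 counts in any library, and their intervals ran from -0.40 to 1.52, from -0.91 to 0.90 and from -1.25 to 0.87. Another 5 members were under the filter. LOC_Os06g11970 and LOC_Os12g31748 had 0 counts in all 6 libraries, which allows up to 3 counts over the libraries of each group. LOC_Os02g07430, LOC_Os08g33488 and LOC_Os11g43740 had at most 7 counts in any library.

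The members lay on all 12 chromosomes by their locus IDs, and 3 pairs of members were neighbours in ID order. OsMADS14 (LOC_Os03g54160) and LOC_Os03g54170 are consecutive IDs, and both rose, with log2 fold changes of 0.42 and 0.52. OsMADS7 (LOC_Os08g41950) and LOC_Os08g41960 are also consecutive and rose by very different amounts, 0.59 and 4.48. OsMADS13 (LOC_Os12g10540) and LOC_Os12g10520, with 1 ID between them, changed in opposite directions, by 1.23 and -3.69. The 5 tested IDs on either side of LOC_Os08g41960 had log2 fold changes from -1.31 to 0.59 with a median of -0.09. Those around LOC_Os12g10520 ran from -0.48 to 1.23 with a median of 0.31. The upper ends of these ranges are the members OsMADS7 and OsMADS13 themselves. LOC_Os08g41960 and LOC_Os12g10520 were set against their neighbours because their changes were the largest among members. That they lay outside the range of their nearest tested neighbours follows largely from this choice. The sources used here do not give the strand setting of the counting, so reads from overlapping neighbours cannot be told apart.

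The comparison of oscct with CK covered the 15 listed members, of which 12 were higher and 3 lower in oscct (edgeR, adjusted p under the threshold for all 15). Of the 11518 IDs tested in this table, 99.2% passed, 48.9% higher and 50.3% lower, so passing the test says little here and only the direction and size are described. The groups did not overlap for any of the 15 members, but this held for 98.3% of all IDs in the table and so does not set them apart. The median log2 fold change was 0.31 over the 15 members and -0.09 over all IDs tested. The other 24 members were not listed, among them OsMADS1, OsMADS3 and OsMADS17. For 3 members the listed rows were several and were summed. The summed estimated counts were not whole (within 0.005) in all libraries for 9 of the 15 members. Part of their reads may therefore stand in rows that are not in this table, and their sums need not be the whole gene. Reads split between relatives by the counting could also leave a sum not whole. A whole sum does not show that every row of a gene is listed, so the other members may be partial too.

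The AP1/FUL genes were both higher in oscct. OsMADS14 had 438.5, 450.5 and 441.0 CPM of the listed counts in oscct, against 330.8, 341.1 and 331.7 CPM in CK, with a log2 fold change of 0.41 (SE 0.03). OsMADS15 had 508.0, 523.6 and 513.1 CPM in oscct and 423.6, 429.3 and 408.7 CPM in CK, with one of 0.29 (SE 0.03). Both rows of OsMADS14 were higher in oscct, 1.44 and 1.31 times their CK means.

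All 3 B class genes were higher in oscct. OsMADS16 had 152.1, 150.1 and 153.0 CPM in oscct and 129.3, 123.7 and 132.3 CPM in CK, 1.18-fold. OsMADS2 had 48.7, 48.4 and 48.5 CPM in oscct and 41.1, 42.9 and 40.3 CPM in CK, 1.17-fold. OsMADS4 had 12.6, 11.1 and 14.7 CPM in oscct and 5.93, 7.04 and 5.41 CPM in CK, 2.09-fold. This was the largest rise among the listed named genes, and its 2 rows rose alike, by 2.08 and 2.11 times. It rested on 148 to 200 estimated counts in oscct libraries and 68 to 86 in CK libraries.

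OsMADS13 was higher in oscct, with 186.0, 196.0 and 191.5 CPM, against 142.3, 152.3 and 145.0 CPM in CK, a log2 fold change of 0.38 (SE 0.04). Its 3 rows were 1.51, 1.19 and 1.51 times their CK means, so all of them moved the same way. OsMADS6 had 356.3, 396.6 and 378.1 CPM in oscct and 295.2, 299.6 and 293.8 CPM in CK, 1.27-fold. Of the 9 floret markers, 7 were listed in this table. They summed to 1702 to 1776 CPM in oscct and 1357 to 1396 CPM in CK. All 7 were higher in oscct and above 0 in every library. The marker list is a chosen part of the named genes. Of the listed named genes outside it, OsMADS7 and OsMADS8 were higher in oscct and OsMADS5 was lower. Of all IDs tested in this table, 48.9% were higher. OsMADS1 and OsMADS3 were not listed. The listed rows of OsMADS2, OsMADS4, OsMADS13, OsMADS14, OsMADS15 and OsMADS16 may be only part of those genes, and OsMADS6 was not shown to be complete. The part of floret tissue in the difference between these sums was not tested either.

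The E class genes again differed among themselves, with another gene lower. OsMADS5 fell to 109.7, 116.4 and 109.0 CPM in oscct, against 164.2, 159.0 and 162.4 CPM in CK, with a log2 fold change of -0.54 (SE 0.04). OsMADS7 had 32.4, 35.7 and 33.7 CPM in oscct and 29.0, 26.1 and 26.9 CPM in CK, 1.24-fold higher. OsMADS8 had 141.4, 147.7 and 141.3 CPM in oscct and 127.7, 122.1 and 124.4 CPM in CK, 1.15-fold higher. Neither rise reached 1.5-fold.

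**Figure D3:**
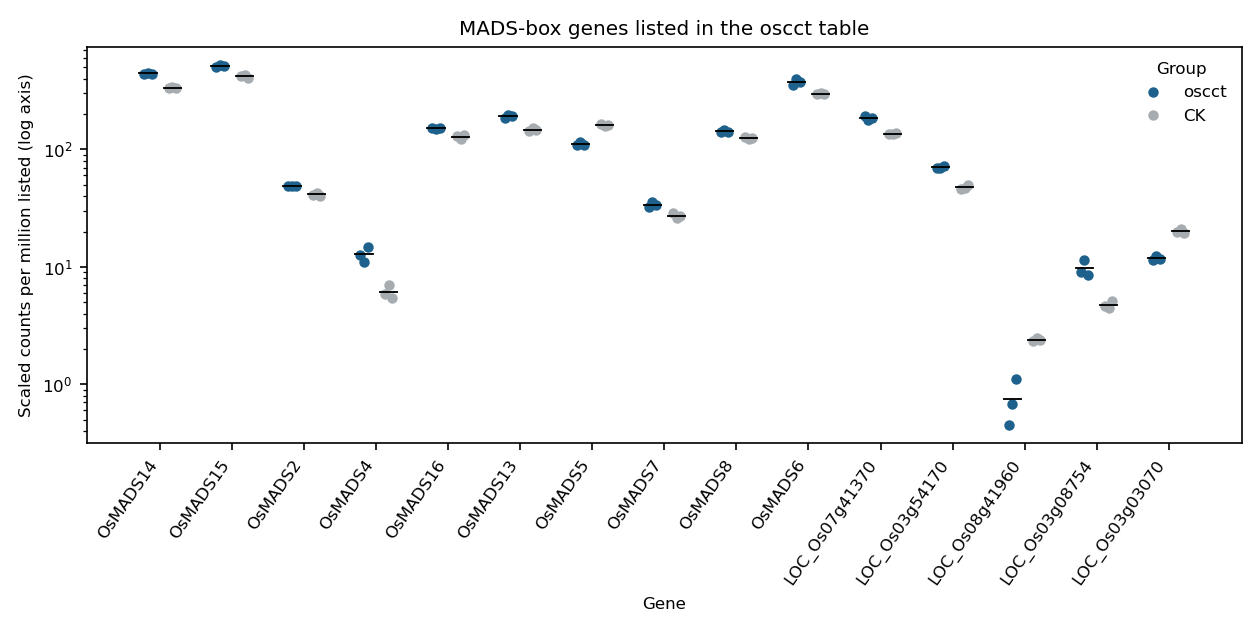
Scaled CPM of the listed counts (log axis) for the 15 MADS-box genes in the oscct table, rows of a gene summed, in the 3 oscct libraries (left of each position) and the 3 CK libraries (right); lines are group means. Of the 15, 12 are higher in oscct, and OsMADS5, LOC_Os08g41960 and LOC_Os03g03070 are lower.

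The other 5 listed members have no name here. LOC_Os03g08754 had 9.10, 11.5 and 8.60 CPM in oscct and 4.64, 4.42 and 5.09 CPM in CK, 2.06-fold higher. LOC_Os03g54170 and LOC_Os07g41370 were 1.49-fold and 1.37-fold higher. LOC_Os08g41960 had 6, 9 and 15 counts in oscct and 29, 30 and 30 counts in CK, with a log2 fold change of -1.67 (SE 0.29). LOC_Os03g03070 had 151, 166 and 160 counts in oscct and 249, 256 and 243 counts in CK, with one of -0.76 (SE 0.08). At least 1.5-fold changes thus numbered 2 higher (OsMADS4 and LOC_Os03g08754) and 2 lower of 15, where 26.8% and 24.8% of all listed IDs changed as much.

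Set side by side, the mutants shared the direction of change for 11 of the 15 members, all higher in both oscct and ossh1. OsMADS15 was higher in oscct and lower in ossh1, while OsMADS5, LOC_Os08g41960 and LOC_Os03g03070 were lower in oscct but higher in ossh1. No member was lower in both. The comparisons share no control library. Over the 10734 IDs tested in both tables, 12.2% were higher in both, 13.6% lower in both, 19.9% higher in oscct and lower in ossh1, and 22.4% lower in oscct but higher in ossh1.

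**Figure D4:**
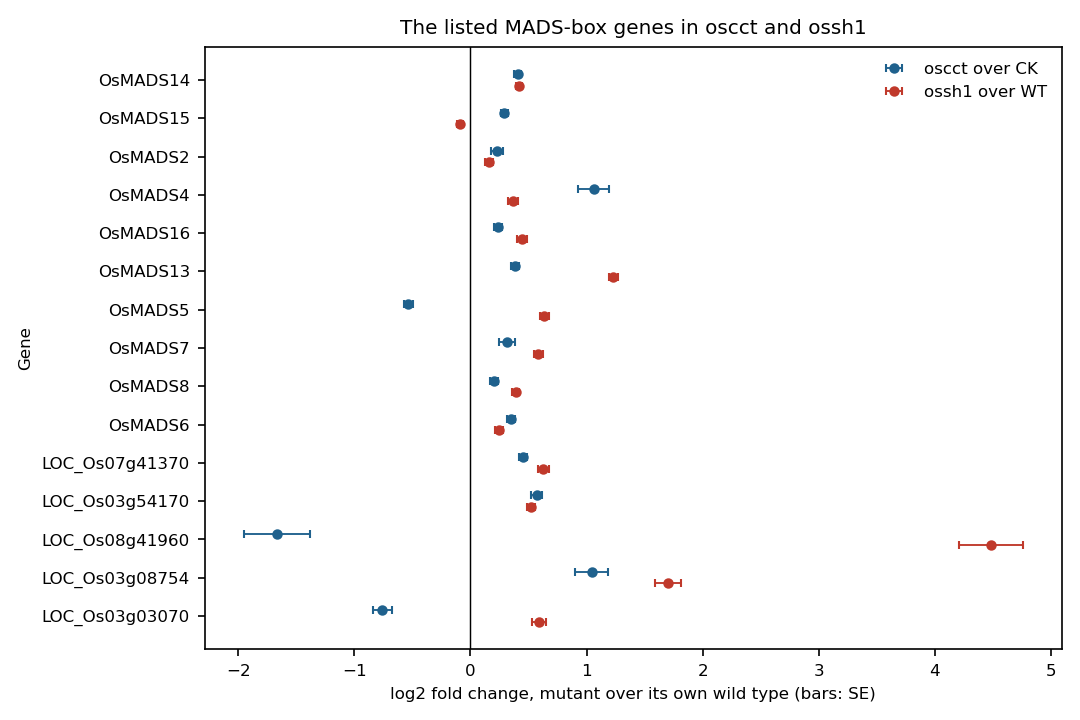
Log2 fold change of oscct over CK and of ossh1 over WT (horizontal axis, bars show SE, 3 libraries per group) for the 15 MADS-box genes present in both tables. OsMADS14, OsMADS2 and LOC_Os03g54170 have nearly equal changes, and OsMADS5, OsMADS15, LOC_Os03g03070 and LOC_Os08g41960 lie on opposite sides of 0.

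The difference between the changes was tested in one model of all 12 libraries over 11654 IDs, where 80.3% of IDs passed, 40.8% with oscct above ossh1 and 39.5% with oscct below. The oscct side of this test has only rows listed for a difference, and for 9 of the 15 members, OsMADS2, OsMADS4, OsMADS7, OsMADS13, OsMADS14, OsMADS15, OsMADS16, LOC_Os03g08754 and LOC_Os07g41370, those rows may be part of the gene set against the whole gene in ossh1. The other members were not shown to be complete either. The differences are therefore a description of the listed rows. Of the 15 members, 12 passed, 3 with oscct above and 9 below; at 1.5-fold or more there were 1 and 5, against 28.6% and 27.3% of all IDs. The largest was LOC_Os08g41960, whose change in oscct was below that in ossh1 by a log2 difference of -6.15 (SE 0.46, edgeR, adjusted p = 7.84e-12), or -7.20 without WT replicate 3. LOC_Os03g03070 differed by -1.35 (SE 0.1, edgeR, adjusted p = 1.07e-11) and OsMADS5 by -1.17 (SE 0.07, edgeR, adjusted p = 3.51e-14). Both had opposite signs in the mutants, and the E class gene OsMADS5 was lower in oscct and higher in ossh1. Rows of the oscct table were listed for a difference, so separation of its replicates there says little. Opposite calls also held for 19.9% (higher in oscct) and 22.4% (lower in oscct) of IDs tested in both tables. Opposite signs therefore do not set OsMADS5 apart.

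Among members higher in both mutants, OsMADS13 rose less in oscct than in ossh1, by a log2 difference of -0.85 (SE 0.05, edgeR, adjusted p = 2.21e-13), and the listed rows of OsMADS4 rose more in oscct, by 0.69 (SE 0.13, edgeR, adjusted p = 4.79e-05). OsMADS15, with opposite signs in the mutants, differed by 0.38 (SE 0.04, edgeR, adjusted p = 2.72e-09). For OsMADS14 the difference was -0.01, with an approximate 95% interval from -0.09 to 0.07, for LOC_Os03g54170 it was 0.05 (-0.06 to 0.16), and for OsMADS2 it was 0.07 (-0.06 to 0.20). These 3 did not pass with the scaling used, and all 3 passed with library totals (differences of 0.25, 0.32 and 0.33 in the same order). For oscct and CK those totals are sums of the listed values, not of whole libraries. With library totals, 6 members were above and 4 below.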

How the data were processed

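Per the labels, total RNA went into SMARTer mRNA-seq libraries. The submitters' processing notes name HISAT2, RSEM 1.3.1, DESeq2 and build IRGSP-1.0, with no role. The authors deposited whole-number read counts for ossh1 and WT, per the file headers, and estimated counts for oscct and CK, headed as read counts, of which 58.5% are whole. Here rows of one ID were summed and rounded. Each mutant was tested against its own wild type in edgeR 4.0.16 (R 4.3.3; filterByExpr, TMM, glmQLFit, glmQLFTest, Benjamini-Hochberg over all IDs, threshold 0.05), and the difference of changes over IDs in both tables, with scaling from each full table. Members and lists were chosen with earlier results of these data known. Values per library, or means with SD, are given for the 13 named members. Values per library are given for any other member with an adjusted p under 0.05 and a 1.5-fold change. Alternatives were library totals, RLE, a mean of 1 CPM, no filter, DESeq2 1.42.0, a replicate block, the most abundant row of an ID and each library left out; centring on the empty range was added after seeing the data. The fits were tested on simulated data in which most IDs were unchanged. That setting does not cover tables in which most IDs passed, or rows listed for a difference. For oscct and CK, library totals and every other scaling rest on the listed values only. Intervals use 1.96 SE. Limits from 0 counts (3 counts) cover counting error only. The labels call replicates biological. Figures used matplotlib 3.10.9. The reference table of gene names pairs no member's ID with a name, and no sequence is shown.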

Additional observations from a re-analysis of the deposited data

Results flagged for a closer look

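The change differed between oscct and ossh1, by the test of the difference itself (edgeR, all 12 libraries), for 12 MADS-box genes; differences are log2 change in oscct minus log2 change in ossh1. They were -6.15 for LOC_Os08g41960, -1.35 for LOC_Os03g03070, -1.17 for OsMADS5, -0.85 for OsMADS13 and -0.66 for LOC_Os03g08754. Smaller ones were -0.27 for OsMADS7, -0.20 for OsMADS16, -0.19 for OsMADS8 and -0.18 for LOC_Os07g41370. The signs for OsMADS16, OsMADS8 and LOC_Os07g41370 turned with library totals, and OsMADS7 (-0.01, adjusted p = 0.948, edgeR) and LOC_Os03g08754 (-0.39, adjusted p = 0.0675, edgeR) were then not called. Above 0 were 0.69 for OsMADS4, 0.38 for OsMADS15 and 0.10 for OsMADS6. The call of OsMADS6 was lost with the replicate block, with the centred scaling and in 9 of 12 omissions of a library. The oscct rows of OsMADS4 and of 8 other members may be only part of the gene, and the rest were not shown to be complete. Of all IDs tested for this difference, 80.3% passed, so passing does not set these genes apart.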

How the results depend on the processing

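In oscct, all 15 members kept their direction and their call in every alternative run. The oscct table lists rows with a difference between its groups, and 99.2% of its tested IDs passed. Keeping a call there therefore says little. In ossh1, 379 of 403 member values kept direction and call, and for the difference 277 of 300 did. With library totals, the difference had 6 members above and 4 below, in place of 3 and 9. Its sign turned with library totals for OsMADS8 (0.0787), OsMADS16 (0.0627), LOC_Os07g41370 (0.0875) and OsMADS14 (0.25), and for OsMADS14 also with RLE (0.01) and DESeq2 (0.0157), and ran between -0.0262 and 0.009 with single libraries left out. OsMADS6, called in the difference with an adjusted p of 0.0455, was not called with the centred scaling (0.06) or the replicate block (0.10, adjusted p = 0.0555, edgeR), and lost its call in 9 of 12 omissions of a library. OsMADS7 (-0.01) and LOC_Os03g08754 (-0.39) were not called with library totals. The causes were not tested.

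Among members not called in ossh1, signs turned with library totals for LOC_Os04g52410 (-0.0638), and with RLE (0.0006) and DESeq2 (0.0016) for LOC_Os04g38780. With single libraries left out, log2 fold changes ran from -0.31 to 0.22 for LOC_Os04g38780, -0.0131 to 0.0591 for LOC_Os04g52410, -0.48 to 0.47 for LOC_Os08g38590, -0.0875 to 0.31 for LOC_Os06g11330 and -0.0448 to 1.12 for LOC_Os04g23910.

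With each library left out, members higher in ossh1 numbered 21 to 22 and members lower 5 to 6, and members above in the difference 2 to 3. Replicate numbers showed no sign of pairing samples. Same-numbered libraries of the compared groups had correlations of their deviations from -0.04 to 0.02 across genes. Differently numbered libraries had correlations from -0.02 to 0.05. This does not show how the samples were collected. With the replicate block, 22 members were higher and 5 lower in ossh1, LOC_Os10g39130 losing its call (adjusted p = 0.053, edgeR), and 12 higher and 3 lower in oscct.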
